A study of Mus musculus with 6 samples.

Results

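The genes described here are 9 integrin chains of leukocytes (Itgax, Itgam, Itgal, Itgb2, Itgb7, Itga4, Itgb1, Itga5 and Itga6), chosen by name as rows of the count table whose Entrez ID belongs to one of these symbols, with no measured value in the rule. All 9 were found among the 27179 genes of the table, and all 9 were among the 11602 genes that passed the filter on low counts. The RNA-seq libraries came from CD8-negative dendritic cells sorted from the spleens of C57BL/6 mice, 3 libraries from CpG-pretreated mice and 3 from untreated mice, each group carrying the replicate numbers 2, 3 and 4. CpG oligonucleotides engage Toll-like receptor 9, and the submitters call the dendritic cells paralysed after a systemic inflammatory syndrome, so the comparison asked how these cells differed after an earlier CpG exposure. The sources used here do not give the age and sex of the mice, the number of mice behind a library, the antibodies of the sort, or the sequence, dose, route and timing of CpG. The design text calls the samples biological replicates, so each p-value rests on the spread between these samples alone.

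Integrins are surface receptors made of 1 alpha and 1 beta chain, and a chain reaches the cell surface only with a partner. The β2 chain (Itgb2, CD18) pairs with αL (Itgal, giving LFA-1), αM (Itgam, CD11b, giving Mac-1), αX (Itgax, CD11c) and αD (Itgad), and these receptors bind ICAMs, fibrinogen and complement fragments. The α4 chain (Itga4) pairs with β1 to bind VCAM-1 and fibronectin, or with β7 to bind MAdCAM-1 in gut vessels, while αE (Itgae, CD103) pairs with β7 to bind E-cadherin. The α5 and α6 chains pair with β1 and bind fibronectin and laminin. In mouse spleen, CD11c is the surface protein by which dendritic cells are usually recognised, and CD11b is typical of the CD8-negative subset. Integrins are switched on from inside the cell by talin, kindlin-3 and the small GTPase Rap1.

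Promoter windows of 3 of the genes are shown because these genes carry the differences described further on, namely Itgb7, whose groups did not overlap, and the chromosome 7 neighbours Itgax and Itgam, whose ratio differed between the groups. Each line holds the 250 bases before a RefSeq transcript start (GRCm38.p6, the assembly that mm10 names), 5′ to 3′ on the gene's strand. The gene positions given further on are the outermost RefSeq bounds, so the Itgb7 window lies inside the gene, upstream of an inner transcript start, and the Itgax window runs past the outermost start, while the Itgam window ends at the base before it. Capitals mark matches, on either strand, to the ETS core GGAA, to GAGGAA (the first bases of the box bound by PU.1, the ETS factor of myeloid cells) and to the Sp1 box GGGCGG.
Itgb7, minus strand, chr15:102231936-102232185: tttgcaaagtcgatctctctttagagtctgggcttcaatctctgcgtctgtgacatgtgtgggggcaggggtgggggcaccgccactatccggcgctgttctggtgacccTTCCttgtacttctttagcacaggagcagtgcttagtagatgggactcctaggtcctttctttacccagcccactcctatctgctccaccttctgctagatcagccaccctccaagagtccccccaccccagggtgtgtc
Itgax, plus strand, chr7:128129300-128129549: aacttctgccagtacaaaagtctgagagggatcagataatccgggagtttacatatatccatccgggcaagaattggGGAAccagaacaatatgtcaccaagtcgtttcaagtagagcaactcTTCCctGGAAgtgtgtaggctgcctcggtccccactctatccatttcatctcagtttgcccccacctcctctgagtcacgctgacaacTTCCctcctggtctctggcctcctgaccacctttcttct
Itgam, plus strand, chr7:128062390-128062639: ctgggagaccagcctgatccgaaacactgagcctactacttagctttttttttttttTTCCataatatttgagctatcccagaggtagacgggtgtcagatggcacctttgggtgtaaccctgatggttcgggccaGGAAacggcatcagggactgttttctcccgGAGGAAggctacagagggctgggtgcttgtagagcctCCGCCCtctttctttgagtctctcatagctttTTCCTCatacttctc
The Itgb7 window held 1 match to GGAA, against 4 in the Itgax window and 4 in the Itgam window, and 93.4% of the 32851 promoter windows of this length in the table held at least 1. The Itgam window held 2 matches to GAGGAA, which overlap its GGAA matches and lie at bases -84 to -79 and -15 to -10 before the start, and 1 match to GGGCGG, while the Itgb7 and Itgax windows held neither. Of all windows 23.3% held GAGGAA and 32.7% held GGGCGG. The Runx core TGTGGT (14% of all windows), the STAT element TTCNNNGAA (7.02%) and the core of the interferon-stimulated response element, GAAA repeated after any 2 bases (2.98%) were searched on both strands and were in none of the 3 windows. These matches are descriptions of the sequence. RefSeq promoter windows were matched for 6 of the 9 genes, and Itgal, Itgb2 and Itga6 had none.

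The libraries had nearly equal depth, with 7855500 to 8228140 counts each. Both libraries numbered 2 stood apart: their deviations from the group mean fell with gene length (Spearman correlations across genes of -0.55 for CpG-pretreated 2 and -0.67 for untreated 2, against 0.23 to 0.53 in the other 4 libraries). Dendritic cell genes were present throughout, with Flt3 at 522 to 659 CPM and Zbtb46 at 138 to 177 CPM (counts scaled to a common library size), while Cd8a, against which the cells were sorted, was at 1.23 to 4.69 CPM. Of 8 markers of the CD8-negative, CD11b-positive subset (Sirpa, Cd4, Clec4a4, Esam, Irf4, Clec10a, Cd209a and Dtx1), 7 had a log2 fold change below 0, with a median of -0.40 over the 8. Esam fell (log2 fold change -0.75, edgeR adjusted p = 0.0444), and 0.5% of all genes were called lower by that test. With the replicate number as a block 4 of the 8 were called lower, against 3.78% of all genes. In 5 of the 8 the CpG-pretreated libraries lay below all untreated ones, against 9.47% of all genes. In the 1 marker with a log2 fold change above 0 (0.54) they lay above all untreated ones, against 9.2% of all genes. The summed level of the 8 was 2294 to 3022 CPM in CpG-pretreated and 2910.1 to 3194 CPM in untreated libraries. Summed T cell markers were at 41.4 to 46.0 CPM in CpG-pretreated and 40.4 to 44.6 CPM in untreated libraries, with Cd3e at 0.123 to 0.888 CPM. Summed monocyte markers were at 881 to 1012 CPM in CpG-pretreated and 864 to 1209.5 CPM in untreated libraries. Of the 8 tested, 5 had a log2 fold change above 0 and 3 below. For B cell markers the sums were 46.3 to 64.7 and 56.4 to 72.5 CPM, and all 5 tested had a log2 fold change below 0. Plasmacytoid dendritic cell markers summed to 124 to 159 and 121 to 128 CPM. Summed erythroid markers were at 1051, 987 and 217 CPM across the CpG-pretreated libraries 2, 3 and 4, against 22.2, 93.1 and 25.0 CPM across the untreated ones. Summed red pulp macrophage markers were at 353 to 479.7 CPM in CpG-pretreated and 533 to 679 CPM in untreated libraries, and all 12 markers had a log2 fold change below 0. In such bulk libraries, fewer cells of a type and less RNA per cell cannot be told apart. Summed neutrophil markers spanned 53.9 to 104 CPM in CpG-pretreated and 3.44 to 76.3 CPM in untreated libraries. All 6 tested had a log2 fold change above 0, and with the block 1 was called higher (4.73% of all genes). Summed endothelial and stromal markers were at 31.1 to 59.5 CPM in CpG-pretreated and 15.9 to 22.1 CPM in untreated libraries, mostly Kdr, and 2 of the 3 tested had a log2 fold change below 0. Platelet and NK cell markers summed to at most 3.42 and 6.13 CPM in any library.

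Levels per kilobase differed widely among the 9 chains and kept nearly the same order in all libraries. In RPKM (CPM per kilobase of gene) the mean over 6 libraries was 518 for Itgax, 452 for Itgb2, 195 for Itgb7, 113 for Itga4, 98.9 for Itgb1, 71.6 for Itgal, 68.1 for Itgam, 5.67 for Itga5 and 0.853 for Itga6. Itgax was above Itgb2 in 6 of 6 libraries, although their ranges over all libraries overlapped (450.3 to 565 against 424 to 483 RPKM). The order of Itga4 and Itgb1, and that of Itgal and Itgam, held in 4 of 6 libraries each, so these neighbours were not separated beyond the spread between libraries. The other neighbours in the order did not overlap. The α4 chain was thus present at 19.0 ± 7.02 times the RPKM of the α5 chain in CpG-pretreated libraries and 21.3 ± 6.14 times in untreated ones (SD, n = 3 each). Together the 9 genes took 0.557% to 0.650% of a library's counts in the CpG-pretreated group and 0.566% to 0.648% in the untreated group.

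**Figure D1:**
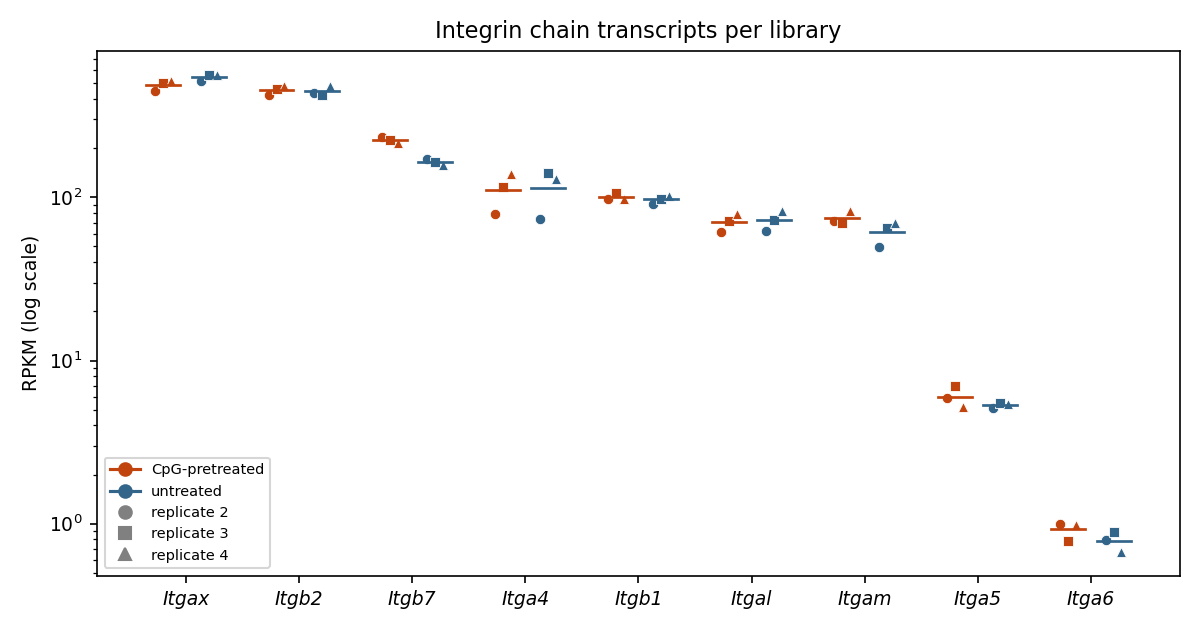
RPKM on a log scale for the 9 integrin chains, ordered by their mean, with CpG-pretreated libraries in orange left of untreated libraries in blue. Each symbol is 1 library, its shape gives the replicate number, and horizontal lines are group means. Itgb7 is the chain whose 3 CpG-pretreated libraries (216 to 235 RPKM) all lie above the 3 untreated ones (158 to 173 RPKM).

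None of the 9 integrin chains passed the test of CpG-pretreated against untreated cells over all genes. By edgeR's quasi-likelihood test with Benjamini-Hochberg adjustment, 0 of the 9 were called at an adjusted p under 0.05, where 0.974% of all genes were called (0.474% higher and 0.5% lower in CpG-pretreated cells). At an unadjusted p under 0.05 there was 1 (Itgb7), against 12.8% of all genes. DESeq2 called 1 (Itgb7, adjusted p = 0.000823), against 3.69% of all genes, and limma-voom called 0, against 0.353%. With the replicate number as a block, edgeR called 1 of 9, again Itgb7, where 8.52% of all genes were called (4.73% higher and 3.78% lower). In 1 of 9 the groups did not overlap, against 18.7% of all genes (9.2% higher and 9.47% lower in CpG-pretreated cells). The median log2 fold change of the 9 was 0.05 and the median of its absolute value 0.16, beside -0.01 and 0.13 over all genes tested.

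**Figure D2:**
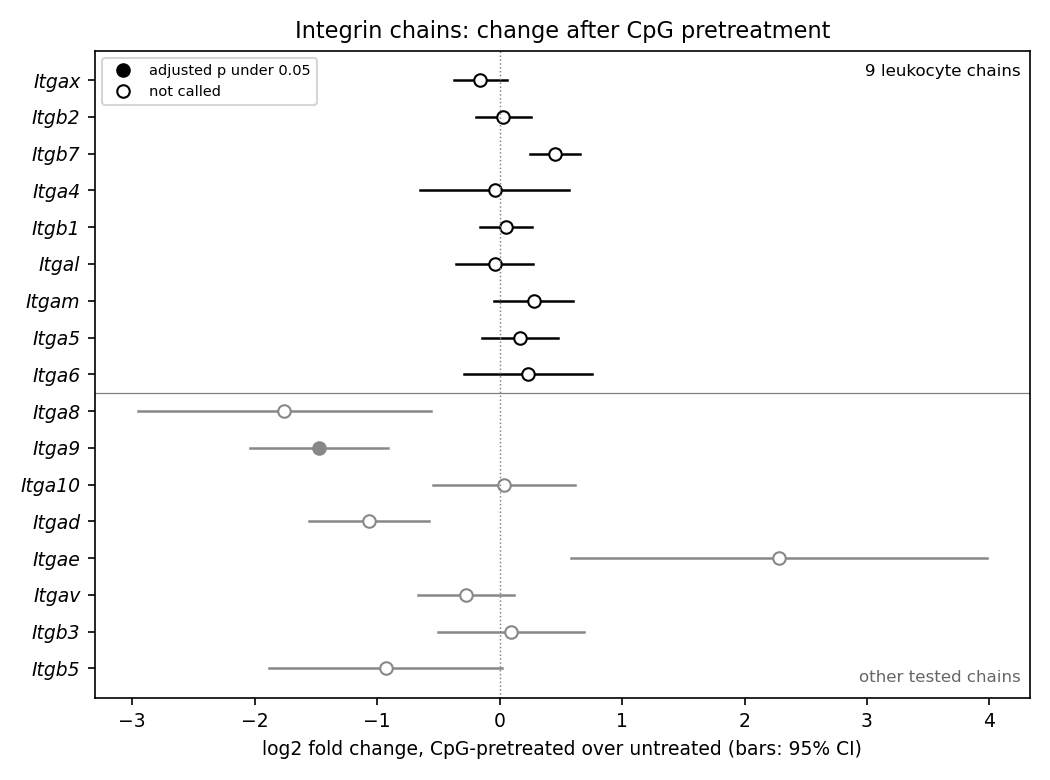
Log2 fold change of CpG-pretreated over untreated cells for the 9 leukocyte integrin chains (black) and the 8 other integrin chains that passed the filter (grey), with 95% confidence intervals from the edgeR fit. Filled symbols passed an adjusted p of 0.05, as Itga9 did at -1.47, and 8 of the 9 leukocyte chains have an interval that includes 0.

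The β2 chain and its main partners made up most of the integrin RNA of these cells, and none of them was called. Itgb2 (Entrez 16414, GRCm38 chromosome 10, 77530329 to 77565708) stood at 1212, 1325 and 1383 CPM across the CpG-pretreated libraries 2, 3 and 4, against 1239, 1219 and 1378 CPM across the untreated ones. The values of both groups interleaved. On the log2 scale the difference was 0.03 (SE 0.10, 95% confidence interval -0.19 to 0.25, edgeR adjusted p = 0.956).

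Itgax (Entrez 16411, chromosome 7, 128129526 to 128150657), the CD11c gene, stood at 1812, 2018 and 2080.4 CPM across the CpG-pretreated libraries, against 2075, 2249 and 2275 CPM across the untreated ones. Each CpG-pretreated library was below the untreated library of its number, and the groups overlapped only by CpG-pretreated 4 and untreated 2. The log2 fold change was -0.16 (SE 0.09, interval -0.38 to 0.06, adjusted p = 0.582, and 0.190 with the block). Itgam (Entrez 16409, chromosome 7, 128062640 to 128118491), the CD11b gene, had 338, 324 and 387 CPM across the CpG-pretreated libraries, against 233, 304 and 327 CPM across the untreated ones. It was higher in CpG-pretreated cells under every number, while the lowest CpG-pretreated library lay just under the highest untreated one. Its log2 fold change was 0.28 (SE 0.14, interval -0.05 to 0.60, adjusted p = 0.485, with the block 0.0631), and it was 0.16 without untreated replicate 2, the library with the lowest value. Itgam shares 3450 exonic bases with Gm49368 on the same strand in GENCODE M21, and the sources used here do not say how reads there were counted.

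Itgal (Entrez 16408, chromosome 7, 127296139 to 127335137), the αL chain of LFA-1, had 319, 376 and 412 CPM across the CpG-pretreated libraries, against 325, 381 and 431 CPM across the untreated ones. Both groups spanned nearly the same range, and same-numbered libraries differed by at most 0.07 on the log2 scale. The fitted log2 fold change was -0.04 (SE 0.14, interval -0.35 to 0.27, adjusted p = 0.964).

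The balance between CD11b and CD11c transcripts differed between the groups, although neither gene was called. The ratio of Itgam to Itgax RPKM was 0.160, 0.138 and 0.160 in CpG-pretreated libraries 2, 3 and 4, against 0.0965, 0.116 and 0.124 in untreated ones, so the groups did not overlap. Of the summed RPKM of the β2 partners (Itgal, Itgam, Itgax and Itgad), Itgax held 76.9% ± 0.937 in CpG-pretreated and 79.8% ± 1.75 in untreated libraries, and Itgam held 11.7% ± 0.865 and 8.94% ± 0.937 (SD, n = 3 each). Itgal held 11.1% ± 0.574 in CpG-pretreated and 10.6% ± 0.795 in untreated libraries, with overlapping groups. The ratio of Itgb2 to this sum was 0.724, 0.718 and 0.710 in CpG-pretreated libraries, against 0.686, 0.607 and 0.666 in untreated ones. These ratios were chosen after the values were seen and carry no test, and non-overlapping groups occurred in 18.7% of single genes. The log2 fold change of Itgam minus that of Itgax was 0.44, and 0.31 to 0.53 when libraries were left out. Markers of the CD11b-positive subset and of red pulp macrophages were mostly lower in CpG-pretreated libraries, as given above. All 6 neutrophil markers tested and 5 of 8 monocyte markers had a log2 fold change above 0, with overlapping sums. The part of these marker sets in the ratios was not tested.

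**Figure D3:**
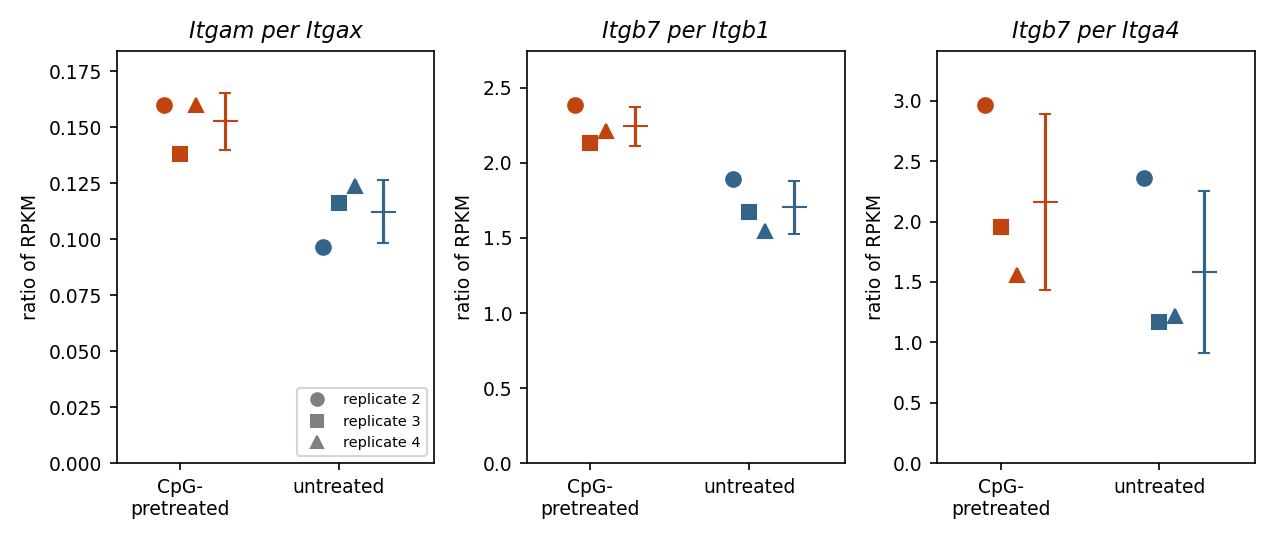
Ratios of RPKM between integrin chains in each library, CpG-pretreated in orange and left of untreated in blue, with symbol shapes for the replicate number and bars for the mean and SD (n = 3 each). The groups do not overlap for Itgam per Itgax (0.138 to 0.160 against 0.0965 to 0.124) and Itgb7 per Itgb1 (2.13 to 2.39 against 1.55 to 1.89), and they overlap for Itgb7 per Itga4.

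The β7 chain showed the largest and most even difference among the 9 genes. Itgb7 (Entrez 16421, chromosome 15, 102215994 to 102233405) stood at 628, 604 and 578 CPM across the CpG-pretreated libraries 2, 3 and 4, against 462, 438 and 422 CPM across the untreated ones, which rest on 3430 to 5117 counts per library. All 3 CpG-pretreated libraries lay above all 3 untreated ones, as did those of 9.2% of all genes, and the differences between same-numbered libraries were 0.44, 0.46 and 0.45 on the log2 scale. The group means were 603 ± 24.9 and 441 ± 20.4 CPM (SD, n = 3 each), a fold of 1.37 with a 95% interval of 1.19 to 1.58. The log2 fold change was 0.45 (SE 0.09), with an edgeR adjusted p of 0.0623 and of 0.00123 with the replicate block. Itgb7 therefore passed the threshold only where same-numbered libraries were treated as pairs, with DESeq2, or without both libraries numbered 2 (edgeR adjusted p = 0.0456). The sums of erythroid, endothelial and red pulp macrophage markers given above also separated the groups. The endothelial sum was mostly Kdr, and 2 of the 3 endothelial markers tested had a log2 fold change below 0. The part of these sums in the Itgb7 difference was not tested.

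Itga4 (Entrez 16401, chromosome 2, 79255426 to 79333114), the α4 partner of β7 and β1, had 777, 1136 and 1363 CPM across the CpG-pretreated libraries, against 719.8, 1378 and 1272 CPM across the untreated ones. The spread ran along the replicate numbers, with both libraries numbered 2 far below the rest, and the groups overlapped throughout. Itga4 is the longest of the 9 in the table (9832 bases), and the libraries numbered 2 are those whose deviations fell with gene length. The log2 fold change was -0.04 (SE 0.27, interval -0.65 to 0.57, adjusted p = 0.976), and with the block it was -0.02 (SE 0.09, adjusted p = 0.912). Itga4 overlaps Cerkl on the opposite strand by 1124 exonic bases, and Cerkl itself had 11 to 18 counts in CpG-pretreated and 22 to 23 counts in untreated libraries, against 5857 to 11024 for Itga4. The Itgb7 to Itga4 ratio of RPKM was 2.97, 1.96 and 1.56 in CpG-pretreated libraries 2, 3 and 4, against 2.36, 1.17 and 1.22 in untreated ones, higher in CpG-pretreated cells under each number while the groups overlapped.

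By the measure of likeness used here, Pearson's correlation of log2 CPM over the 6 libraries among 9245 other genes averaging at least 3 in log2 CPM, the genes most like Itgb7 were Gpi1 (0.993), Pltp (0.991) and Ncapg (0.989). They encode a glycolytic enzyme, a phospholipid transfer protein and a condensin subunit. Their log2 fold changes were 0.20, 0.75 and 0.58 (edgeR adjusted p = 0.359, 0.0388 and 0.0541). With 6 libraries in 2 groups, such correlations mostly describe the shared group difference.

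The β1 chain and its α5 and α6 partners were not called. Itgb1 (Entrez 16412, chromosome 8, 128685654 to 128733579) had 412, 444 and 409.9 CPM across the CpG-pretreated libraries, against 383, 412 and 427 CPM across the untreated ones. The groups overlapped, and Itgb1 varied little over all 6 libraries. The log2 fold change was 0.05 (SE 0.09, interval -0.16 to 0.26, adjusted p = 0.917). The ratio of Itgb7 to Itgb1 RPKM, the beta chains that share α4, was 2.39, 2.13 and 2.21 in CpG-pretreated libraries, against 1.89, 1.67 and 1.55 in untreated ones, without overlap and again with no test.

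Itga5 (Entrez 16402, chromosome 15, 103344286 to 103366791), of the fibronectin receptor, had 25.8, 30.3 and 22.5 CPM across the CpG-pretreated libraries, against 22.5, 24.0 and 23.5 CPM across the untreated ones. The untreated libraries lay at the low end of the CpG-pretreated range, with overlap (log2 fold change 0.17, SE 0.13, interval -0.14 to 0.48, adjusted p = 0.725). Itga6 (Entrez 16403, chromosome 2, 71786886 to 71858427), of laminin receptors, was near the filter, with 34, 26 and 33 counts in CpG-pretreated libraries against 27, 30 and 23 counts in untreated ones. The groups overlapped, and the interval of its log2 fold change of 0.23 ran from -0.29 to 0.75 (adjusted p = 0.795), so a moderate difference was not detectable at this depth.

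**Figure D4:**
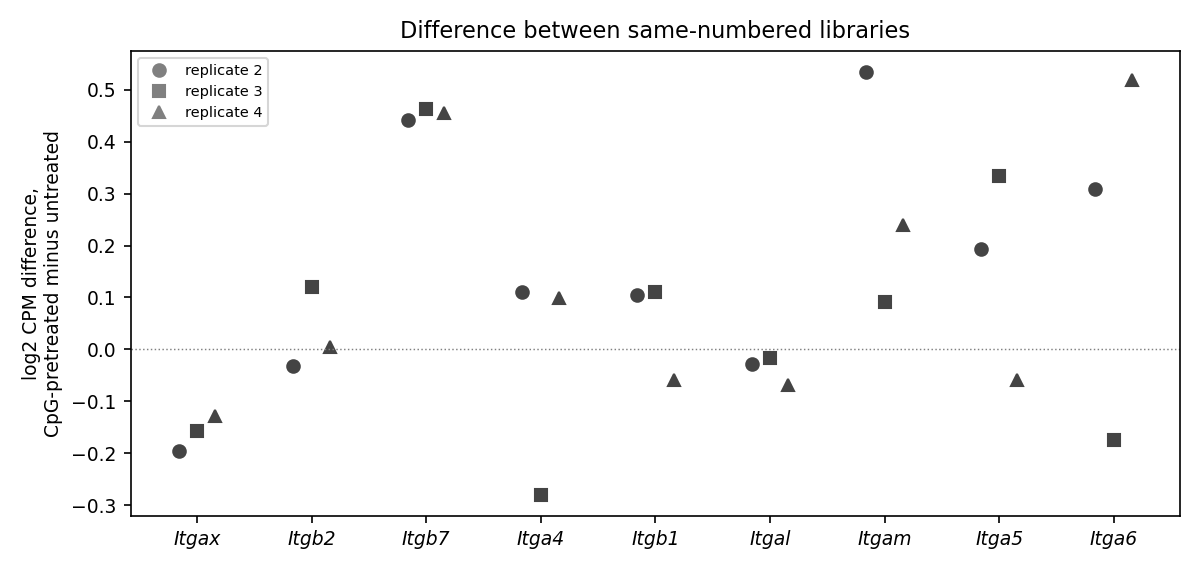
Difference in log2 CPM (prior count 2) between the CpG-pretreated and the untreated library of the same replicate number, for each of the 9 integrin chains, with symbol shapes for the number. Itgb7 lies at 0.44 to 0.46 in all 3, Itgax at -0.20 to -0.13, and Itga4 between -0.28 and 0.11.

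Among the other 17 integrin chains 8 passed the filter, and 1 fell, Itga9, where 0.5% of all genes were called lower. Itga9, the α9 partner of β1, had 4.05, 7.10 and 6.93 CPM across the CpG-pretreated libraries, against 13.03, 19.5 and 17.7 CPM across the untreated ones, or -1.47 on the log2 scale (SE 0.25, edgeR adjusted p = 0.0434). The groups were well apart, and the call was lost by limma-voom (adjusted p = 0.0600) and without CpG-pretreated replicate 2 (0.149) or 3 (0.134) or untreated replicate 3 (0.180) or 4 (0.163), and without both libraries numbered 3 (0.459) or 4 (0.0972). With the block 6 of the 8 were called, 5 lower (Itga8, Itga9, Itgad, Itgav and Itgb5) and 1 higher (Itgae). Of all genes 3.78% were called lower and 4.73% higher with the block. The median log2 fold change of the 8 was -0.60.

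Itgad, the αD partner of β2, known in dog spleen from red pulp macrophages, lies downstream of Itgax in the same chromosome 7 cluster. It had 7.48, 8.24 and 10.8 CPM across the CpG-pretreated libraries, against 14.0, 21.8 and 19.8 CPM across the untreated ones. The groups did not overlap (log2 fold change -1.06, SE 0.21, adjusted p = 0.0662, with the block 0.000683), and Itgad passed the threshold without CpG-pretreated replicate 4 (0.0307), without untreated replicate 2 (0.0458) and without both libraries numbered 2 (0.0456), as well as by DESeq2 (0.00166) and with no filter (0.0275). The summed red pulp macrophage markers, without overlap between the groups as given above, moved the same way. Of the 12 markers 3 were called lower (0.5% of all genes), and 9 with the block (3.78% of all genes). The part of these markers in the lower Itgad and Itga9 values was not tested. Itgad thus had a value of opposite sign to that of Itgam in the same cluster.

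Itgae, the αE partner of β7 and a gene of CD8-positive dendritic cells, was named for its call with the block, once its values had been seen. It had 6.01, 9.64 and 0.756 CPM across the CpG-pretreated libraries 2, 3 and 4, against 1.11, 1.25 and 0.983 CPM across the untreated ones. Numbers 2 and 3 were high and number 4 was not, so the groups overlapped (log2 fold change 2.28, SE 0.74, adjusted p = 0.225, with the block 0.0213, 0.00495 without CpG-pretreated replicate 4, 0.0261 without both libraries numbered 4 and 0.0256 by DESeq2). Of 7 other markers of those cells 4 had a log2 fold change above 0 and 3 below, with a median of 0.01, from -0.40 for Cadm1 to 1.27 for Xcr1. With the block 2 of the 7 were called, both higher (4.73% of all genes), among them Xcr1 (adjusted p = 0.00474 with the block). In 2 of the 7 the CpG-pretreated libraries lay above all untreated ones (9.2% of all genes). The summed level of the 7 was 1932 to 2658 CPM in CpG-pretreated and 1699 to 2833 CPM in untreated libraries. Summed erythroid markers were also lower in CpG-pretreated 4 (217 CPM) than in CpG-pretreated 2 and 3 (1051 and 987 CPM). The part of either marker set in the Itgae values was not tested. Per kilobase, Itgae reached at most 0.0183 of the Itga4 level in any library. Of the remaining chains in the rule, Itgav, the αV chain, stood at -0.28 on the log2 scale (adjusted p = 0.608, and 0.0407 with the block), and its partner Itgb3 at 0.10 (adjusted p = 0.948).

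Among the integrin ligands 9 of 24 genes passed the filter and 1 fell, Vcam1, which encodes the ligand of α4β1. By the same test 0.5% of all genes were called lower. Vcam1 had 11.9, 16.6 and 19.0 CPM across the CpG-pretreated libraries, against 28.6, 53.1 and 46.3 CPM across the untreated ones, without overlap (log2 fold change -1.43, SE 0.25, edgeR adjusted p = 0.0444). The call was lost by limma-voom (adjusted p = 0.0718) and without CpG-pretreated replicate 2 (0.165) or 3 (0.159) or untreated replicate 3 (0.180) or 4 (0.168), and without both libraries numbered 3 (0.494) or 4 (0.0937). Vcam1 is also a surface protein of red pulp macrophages, whose markers were lower as given above, and their part in the Vcam1 values was not tested. With the block 3 of the 9 ligands were called, against 8.52% of all genes. Vcam1 was lower, and Spp1 (osteopontin, log2 fold change 1.35, adjusted p = 0.0779, and 0.00158 with the block) and F11r (JAM-A, 0.38, adjusted p = 0.228, and 0.0400 with the block) were higher. The most abundant ligands had log2 fold changes of -0.07 for Tgfb1, which as a latent complex binds αV integrins (adjusted p = 0.869), -0.16 for Icam1, the ligand of LFA-1 and Mac-1 (0.646), and -0.01 for C3, whose fragment iC3b binds Mac-1 and CD11c/CD18 (0.992). The median of the 9 was -0.07.

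The inside-out activation genes showed no call and a narrow range. None of 17 tested genes passed the edgeR test, where 0.974% of all genes were called. None did at an unadjusted p under 0.05 (12.8% of all genes) or with DESeq2 (3.69%). Fits by limma-voom (0.353%) and with the block (8.52%) also gave 0 of 17. A list this short can hold 0 calls at such shares. The log2 fold changes of the 17 ran from -0.24 to 0.17 with a median of 0.002. The median of the absolute value was 0.07, against 0.13 over all genes tested. Tln1, encoding talin, had 1873, 2341 and 2294 CPM across the CpG-pretreated libraries, against 1332, 2188 and 2329 CPM across the untreated ones (0.15, adjusted p = 0.862). Both libraries numbered 2 were the lowest of their group, and the groups overlapped. The adaptor gene Fyb stood at -0.24 (adjusted p = 0.658) and the Rap1 exchange factor gene Rapgef1 0.05 (0.962).

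Genes that restrain integrin activation gave 0 calls among 11 tested by edgeR (0.974% of all genes). At an unadjusted p under 0.05 there were 2 (12.8% of all genes). DESeq2 called 1 (3.69% of all genes) and limma-voom 0 (0.353%). With the block 3 were called (8.52% of all genes), 1 higher and 2 lower in CpG-pretreated cells. The lower ones were Cytip, whose product releases LFA-1 adhesion by binding cytohesin-1 (log2 fold change -0.28, adjusted p = 0.305, and 0.0375 with the block), and Tns1 (tensin-1, -1.03, adjusted p = 0.225, and 0.000632 with the block). Flna, the filamin that competes with talin for beta tails, had 0.21 (adjusted p = 0.725). The log2 fold changes of the 11 ran from -1.03 to 0.46, with a median of -0.004.

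Downstream kinases and adaptors gave 0 calls among 24 tested by edgeR (0.974% of all genes), with 2 at an unadjusted p under 0.05 (12.8%). There were 0 calls by DESeq2 (3.69% of all genes), by limma-voom (0.353%) and with the block (8.52%). Fgr, a Src-family kinase gene that acts downstream of β2 integrins in myeloid cells, stood at 0.02 on the log2 scale (adjusted p = 0.967), and the actin regulator gene Vasp at -0.02 (0.968). Genes of integrin traffic gave 0 calls among 12 tested by edgeR (0.974% of all genes), and 0 at an unadjusted p under 0.05 (12.8%). Fits by DESeq2 (3.69%), by limma-voom (0.353%) and with the block (8.52%) also gave 0. Lists as short as these 2 can hold 0 calls at such shares. Arf6 stood at 0.13 (edgeR adjusted p = 0.655), Rab21 at 0.06 (0.899) and Snx17 at 0.03 (0.961). The medians were 0.03 for the 24 and 0.01 for the 12.

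Of the membrane proteins that lie beside integrins, 1 of 10 tested fell, where 0.5% of all genes were called lower. Cd81, a tetraspanin gene, had 21.3, 17.6 and 31.7 CPM across the CpG-pretreated libraries, against 75.0, 57.1 and 77.4 CPM across the untreated ones, or -1.57 on the log2 scale (SE 0.22, edgeR adjusted p = 0.0379). The groups did not overlap, and the adjusted p was 0.149 and 0.123 without CpG-pretreated replicate 2 or 3, and 0.0527, 0.0765 and 0.158 without untreated replicate 2, 3 or 4. Without both libraries numbered 2 or 3 it was 0.265 or 0.286. With the block 2 of the 10 were called, both lower, against 3.78% of all genes. Beside Cd81 this was the tetraspanin gene Cd9 (-0.41, edgeR adjusted p = 0.349, and 0.0180 with the block). The more abundant Cd53, Cd82 and Cd47 had log2 fold changes of -0.04, 0.07 and 0.18 (adjusted p = 0.940, 0.852 and 0.458). The median of the 10 was -0.22.

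**Figure D5:**
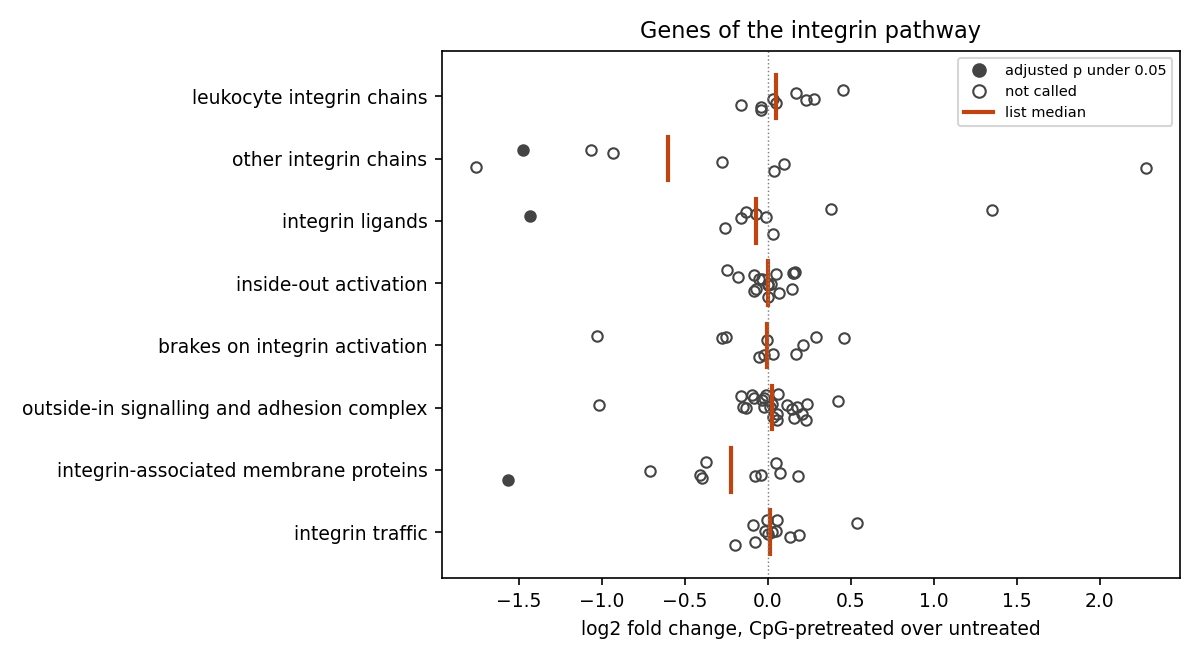
Log2 fold change of CpG-pretreated over untreated cells for every tested gene of 8 lists of the integrin pathway, 1 symbol per gene with vertical jitter, and the list median as an orange line. Filled symbols passed an adjusted p of 0.05: Itga9, Vcam1 and Cd81, all lower in CpG-pretreated cells.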

How the data were processed

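Splenic dendritic cells were enriched, sorted and lysed at once, and polyadenylated RNA was sequenced, per the labels' protocols. The authors deposited a whole-number read count and a length for each Entrez gene. CASAVA, featureCounts and mm10 are named in the submitters' processing notes. The sources used here do not give the aligner, the strand setting or the handling of multiply matching reads, so antisense overlaps cannot be told apart. Counts in the 6 single-sample tables equalled those of the series table.

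Symbols and positions came from RefSeq GRCm38.p6 by gene ID (25275 of 27179 matched). Tests ran in edgeR 4.0.16 (R 4.3.3): filterByExpr (minimum count 10, minimum total 15), TMM, robust dispersions and the quasi-likelihood test, two-sided, with Benjamini-Hochberg adjustment over all 11602 genes tested. Intervals are at 95%. DESeq2 1.42.0, limma-voom (limma 3.58.1), other scalings and filters, a block and left-out libraries were alternatives, and the fits were tested on simulated data. CPM uses TMM library sizes and RPKM divides it by the deposited length. Deviations of same-numbered libraries correlated at 0.48, 0.25 and 0.31 (numbers 2, 3 and 4), each over 0.1. Those of differently numbered libraries correlated at -0.39 to 0.066. Taken from a mean of 3 libraries, the deviations depend on each other, so these correlations are a description. No label explains the numbers, so the principal test stayed unpaired. Pairing by number, on the data alone, entered the tests only as the block. Genes named beside the 9 were every other integrin chain averaging at least 3 in log2 CPM or a call, and in each further list the called genes and the 3 with the highest CPM. Genes called only with the block were named after their values were seen. Some genes that these rules name are not reported here. The members and the lists were chosen with earlier results of these data known. Chi-square values per degree of freedom between replicates were 3.17 to 19.7, so all 6 libraries were kept as separate replicates.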

Additional observations from a re-analysis of the deposited data

How the results depend on the processing

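The sign of the log2 fold change held under all 19 alternatives for Itgax, Itgam, Itgb1, Itga5, Itga6, Itgb7, Itga9, Itgad, Itgav, Vcam1 and Cd81. That of Itgb7 ran from 0.42 to 0.50. Itgb2 turned to -0.0019 with upper quartile scaling. With libraries left out, singly or by number, Itgb2 ran from -0.012 to 0.087, Itgal from -0.13 to 0.064, Itga4 from -0.27 to 0.16, Itga10 from -0.11 to 0.21 and Itgb3 from -0.21 to 0.32, none of them called. Of all genes, 113 were called by the principal test, 189 without a filter, 428 by DESeq2, 41 by limma-voom and 988 with the replicate block, and 1001 by limma-voom and 495 by DESeq2 with the block, both chosen after seeing the data. In the same order the leukocyte chains gave 1 call by DESeq2 and 1 in each of the 3 fits with the block. The other chains gave 2, 3, 0, 6, 6 and 2, and the ligands 2, 2, 0, 3, 3 and 2. The genes that restrain activation gave 1 by DESeq2 and 3 in each fit with the block, and the membrane partners 2 with the block by edgeR and by limma-voom. With libraries left out the ranges were 0 to 386 for all genes, 0 to 1 for the leukocyte chains, 0 to 3 for the other chains, 0 to 2 for the ligands and 0 to 1 for the membrane partners. For all genes the count was 386 without CpG-pretreated replicate 4, and 0 by edgeR without CpG-pretreated replicate 2, without CpG-pretreated replicate 3 and without both libraries numbered 3, where 1065, 1107 and 726 genes had an unadjusted p under 0.05. The causes were not tested. Scaling moved the median of all genes by less than 0.1 on the log2 scale. Depth limited Itga6, and 9 other integrin chains were too low to test.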
